A study of Homo sapiens with 4 samples.

Results

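Among the CDK inhibitors and pocket proteins measured after KPT-9274, the largest difference over both cell lines together was a lower signal of the pocket protein gene RBL1, which did not pass the test over all genes, while the inhibitor gene CDKN1A lay at background on every array. The set was defined by 9 gene symbols: CDKN1A, CDKN1B, CDKN1C, CDKN2A, CDKN2C and CDKN2D for the inhibitors, and RB1, RBL1 and RBL2 for the pocket proteins. Of these, 8 had a transcript cluster on the array that carried their symbol alone, 5 inhibitors and 3 pocket proteins, among 22393 named genes. Each of the 8 had a single such cluster. No cluster was matched to CDKN2C, which was not analysed here. The RNA came from cultures of established human lines, labelled as myeloma cells: KMS11 treated with KPT-9274 for 48 h, untreated KMS11, OPM2 treated with KPT-9274 for 48 h, and untreated OPM2. Each of these has 1 array. KPT-9274 is described as a dual inhibitor, of PAK4, a kinase, and of NAMPT, which recycles nicotinamide into NAD. The labels give neither a dose nor a time for the untreated cultures, so time in culture and the compound cannot be told apart.

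The 2 classes of genes act at the same gate of the cell cycle. Cyclin D with CDK4 or CDK6, and then cyclin E with CDK2, phosphorylate the pocket proteins RB, p107 and p130 (genes RB1, RBL1 and RBL2), which otherwise hold E2F transcription factors back from genes of DNA replication. INK4 inhibitors (CDKN2A, CDKN2C and CDKN2D) bind CDK4 and CDK6, and CIP/KIP inhibitors (CDKN1A, CDKN1B and CDKN1C) bind cyclin-CDK complexes more broadly. In myeloma, loss of members of this pathway and high expression of cyclin D genes are common.

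The arrays labelled KMS11 went against their label in MAF and in cell type markers. On them MAF, a translocation gene that KMS11 is known to overexpress, read 5.86 (treated) and 5.68 (control), against 10.87 and 12.11 on the OPM2 arrays. The other 3 genes of that check, FGFR3, NSD2 and CCND2, were above background on the KMS11-labelled arrays. FGFR3 was only 0.83 above it on the treated array. All 3 read lower there than on the OPM2 arrays, FGFR3 by the most. Being above background is not overexpression, so these values do not show that FGFR3 matches the label. FGFR3 read 7.39 and 7.99 there, against 12.45 and 13.55 on the OPM2 arrays, NSD2 10.83 and 10.84, against 11.59 and 12.39, and CCND2 10.41 and 12.23, against 12.96 and 14.69. Of 10 plasma cell markers, 4 were above background on each KMS11-labelled array, against 7 on the treated and 8 on the control OPM2 array. Of the 4, IRF4 and MZB1 were at most 0.26 above background there, and XBP1 and JCHAIN at least 3.45. The log2 summed signal of the plasma cell markers was 11.79 (treated) and 12.10 (control) on the KMS11-labelled arrays, against 17.02 and 17.33 on the OPM2 arrays. Of 8 measured erythroid markers, 6 were above background on each KMS11-labelled array, with a log2 summed signal of 16.55 (treated) and 16.37 (control), against 0 and 1 on the OPM2 arrays, with 9.23 and 9.08. Of 7 measured myeloid, mast and basophil markers, 6 were above background on each KMS11-labelled array, with a log2 summed signal of 16.75 and 16.95, against 0 and 1 on the OPM2 arrays, with 8.87 and 8.54. Of 4 measured B cell markers, 2 were above background on each KMS11-labelled array and 0 on the OPM2 arrays, and T cell and stromal markers were at or under background on all 4 arrays. The part of these cell identities in the results was not tested, and every treatment result is given for OPM2 on its own as well.

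Values are log2 signals. Background was set from 394 olfactory receptor genes, which blood cells hardly transcribe, at their 95th percentile on each array. It was 6.56 on the treated and 6.49 on the control KMS11-labelled array, and 7.65 on the treated and 6.81 on the control OPM2 array. The raised background of the treated OPM2 array bears on dim genes. With 1 array per line and treatment there is no replicate within a line. The lines served as the replicates in a linear model (limma) with line and agent as terms, over 16790 tested genes, and all 8 measured members were among these. At an adjusted p below 0.05, 0 genes were higher and 0 lower after treatment (percent called 0 each way). At an unadjusted p below 0.05, 666 were higher (3.97%) and 1453 lower (8.65%). Separate cultures are not mentioned in the labels, so p-values measure the spread between these arrays, and in bulk RNA fewer cells of a type and less RNA per cell cannot be told apart.

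Of the CIP/KIP genes, CDKN1A and CDKN1C were not detected above background and CDKN1B was. CDKN1A encodes p21, the inhibitor best known as a p53 target. It read 6.51 on the treated and 6.34 on the control KMS11-labelled array, and 6.59 on the treated and 6.43 on the control OPM2 array. All 4 values were under the background of their array, by 0.05 at the least and 1.06 at the most, so no change can be given. CDKN1C, which encodes p57, an imprinted gene that restrains growth in development, read 6.51 and 6.03 on the treated and control KMS11-labelled arrays and 6.12 and 5.91 on the treated and control OPM2 arrays. It too was under background on every array, on the treated KMS11-labelled array by 0.05. That 2 of 8 members were not above background on any array compares with 31.8% of all tested genes, and the 4 members above background on all arrays (CDKN1B, RB1, RBL1 and RBL2) compare with 39.9%.

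CDKN1B was the inhibitor gene with a clear signal in both lines. It encodes p27, which holds cyclin E with CDK2 inactive in resting cells and is mostly controlled through protein turnover. It read 10.49 on the treated KMS11-labelled array, against 9.42 on its control, a difference of 1.07 (2.10-fold higher). In OPM2 it read 10.81 on the treated array, against 10.65 on the control, a difference of 0.16 as deposited, which turned to -0.16 when arrays were centred on their medians. The treated and control arrays of both lines together gave 0.62 (95% interval -0.21 to 1.44), higher on 2 of 2 treated arrays, with a limma adjusted p of 0.470. CDKN1B was the 1 member of 8 at least 2-fold higher in the KMS11-labelled arrays, where 1.64% of all tested genes were, and under median centring it fell just short of that fold, at 0.99. In OPM2 0 of 8 were, against 2.51% of all tested genes.

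**Figure D1:**
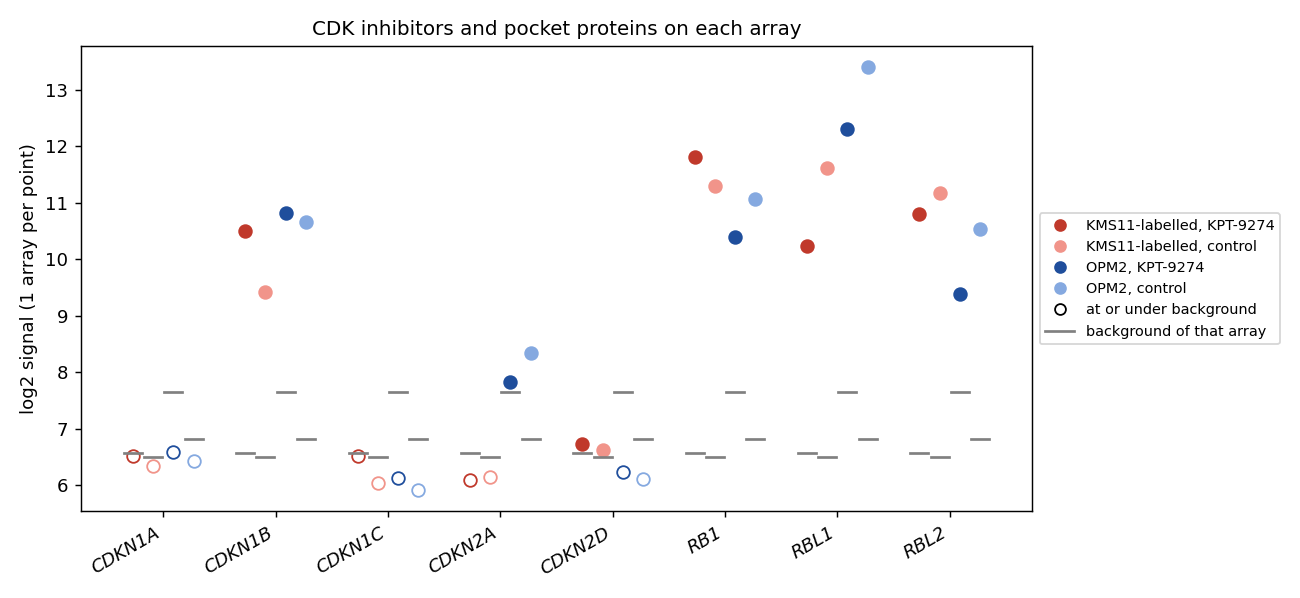
Log2 signal of each of the 8 measured members on the 4 arrays (1 point per array; no error bars, since each group has 1 array), with the background of each array as a grey line and open points at or under it. CDKN1A and CDKN1C lie under background throughout, CDKN2A is above it in OPM2 alone, and RBL1 is lower on the treated array of each line.

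Of the INK4 genes, CDKN2A was measurable in OPM2 and CDKN2D in the KMS11-labelled arrays. CDKN2A encodes p16 and, in another reading frame, the p53 activator ARF, and its cluster does not tell them apart. It read 7.83 on the treated OPM2 array, against 8.34 on the control, a difference of -0.51 (1.42-fold lower), with the treated value only 0.18 above its raised background. On the KMS11-labelled arrays it read 6.09 (treated) and 6.15 (control), both under background. CDKN2D, which encodes p19 of the INK4 family, read 6.73 on the treated and 6.62 on the control KMS11-labelled array, 0.17 and 0.13 above background. In OPM2 it read 6.24 and 6.10 on the treated and control arrays, both under background. Neither gene passed the treatment test (limma adjusted p = 0.599 for CDKN2A and 0.756 for CDKN2D).

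RBL1 encodes p107, a pocket protein that is itself transcribed from an E2F-responsive promoter in cycling cells. Its sequence just before the transcription start is shown because RBL1 was the member with the lowest treated minus control value over both lines together (in OPM2 alone RBL2 was lower), and beside it that of RBL2, which encodes p130, the pocket protein of resting cells. Capitals mark matches to any of 4 words of the E2F consensus (TTTCCCGC, TTTCGCGC, TTTGCCGC and TTTGGCGC), searched on both strands. The stretches are the 120 bases before the start, from RefSeq, build GRCh38.p14: chr20:37095998-37096117 on the minus strand for RBL1 and chr16:53434351-53434470 on the plus strand for RBL2.
RBL1: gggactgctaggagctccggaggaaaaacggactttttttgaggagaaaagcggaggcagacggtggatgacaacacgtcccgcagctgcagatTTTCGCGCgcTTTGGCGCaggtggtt
RBL2: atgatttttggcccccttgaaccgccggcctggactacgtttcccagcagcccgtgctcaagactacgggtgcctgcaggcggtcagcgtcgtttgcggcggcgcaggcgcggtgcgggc
The RBL1 stretch held TTTCGCGC from 26 to 19 bases and TTTGGCGC from 16 to 9 bases before the start, without overlap. RefSeq windows of 300 bases (250 before and 50 after a start) were matched to 7 of the 8 measured members, 9 windows in all, and CDKN1C had none. The RBL1 window held 2 words and the other windows of these members 0. Among 35116 windows of all genes, 3.31% held at least 1 word and 0.145% at least 2. A match is a run of letters, and nothing about E2F binding in these cells was measured.

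RBL1 was lower after treatment in both lines. It read 10.24 on the treated KMS11-labelled array, against 11.62 on its control, a difference of -1.38 (2.60-fold lower). In OPM2 it read 12.30 on the treated array, against 13.40 on the control, a difference of -1.10 (2.14-fold lower). All 4 values were at least 3.68 above background. The model gave -1.24 (95% interval -1.78 to -0.70), lower on 2 of 2 treated arrays, with an unadjusted p of 0.00333 and a limma adjusted p of 0.325, which does not pass. Of the 16790 tested genes, 209 had a value as low or lower. RBL1 was the 1 member of 8 at least 2-fold lower in both lines, where 1.19% of all tested genes were.

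Tested genes with E2F words in a RefSeq window give RBL1 a context. The 37 tested genes with at least 2 words, RBL1 among them, had a median change of -0.09 in the KMS11-labelled arrays and -0.38 in OPM2. The 11147 with 0 words had medians of 0.04 and -0.03. RBL1 was below the median of the genes that share this feature, in each line, which its choice for a low value made likely. These medians are a description, and the groups were not matched for signal level.

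RBL2 was lower by less in 1 line than in the other. It read 10.80 on the treated KMS11-labelled array, against 11.17 on its control, a difference of -0.37 (1.29-fold lower). In OPM2 it read 9.38 on the treated array, against 10.54 on the control, a difference of -1.16 (2.23-fold lower). The model gave -0.77 (95% interval -1.52 to -0.01), lower on 2 of 2 treated arrays, with an unadjusted p of 0.0489 and a limma adjusted p of 0.392. In OPM2, RBL1 and RBL2 were the 2 members of 8 at least 2-fold lower, against 5.52% of all tested genes, and in the KMS11-labelled arrays RBL1 was the 1 of 8, against 4.43%.

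RB1, the retinoblastoma gene and the tumour suppressor of the family, went opposite ways in the lines. It read 11.80 on the treated KMS11-labelled array, against 11.29 on its control, a difference of 0.51 (1.42-fold higher). In OPM2 it read 10.40 on the treated array, against 11.07 on the control, a difference of -0.67 (1.59-fold lower). The model, which averages the lines, gave -0.08 (95% interval -1.07 to 0.91; limma adjusted p = 0.923), higher on 1 of 2 treated arrays. Of all tested genes 1.61% differed by at least 0.5 in opposite directions, and RB1 was the 1 member of 8 that did, though under median centring its KMS11-labelled difference was 0.43. The difference between the lines could not be tested, since no residual is left for it.

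**Figure D2:**
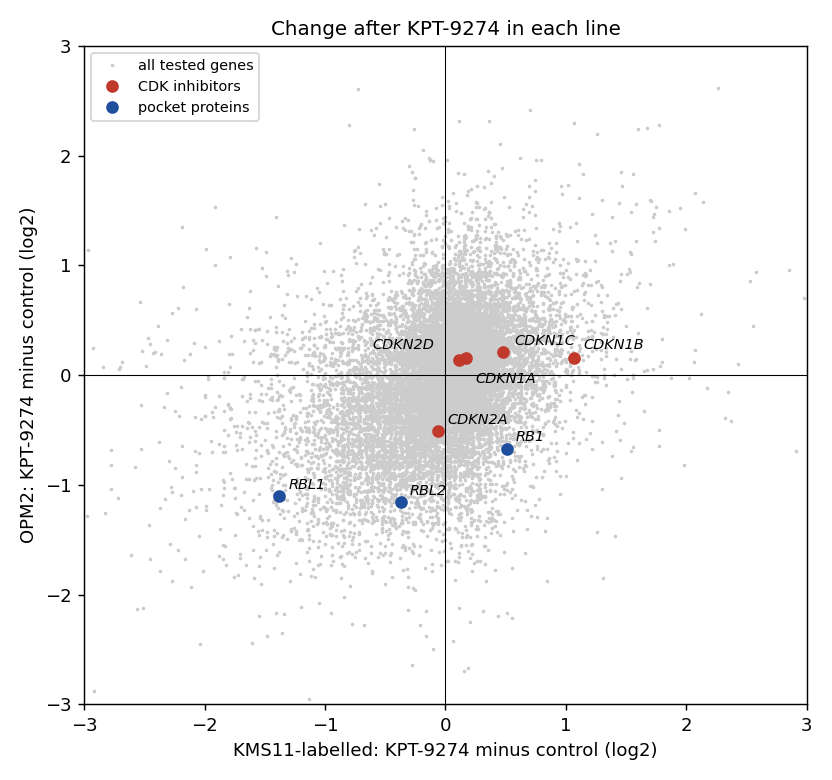
Treated minus control difference (log2) in the KMS11-labelled arrays, across, and in OPM2, upwards, for the 5 CDK inhibitors and 3 pocket proteins over all 16790 tested genes in grey (14 lie outside the axes). RBL1 is low on both axes, RB1 lies in the quadrant of opposite signs, and CDKN1B is displaced along the KMS11-labelled axis alone.

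Over the set, 4 of 8 members were higher in both lines by any amount, against 34.9% of all tested genes, and 3 of 8 lower, against 27.9%. The count of higher members depended on the scaling: it was 0 under median centring (against 13.3% of all tested genes), and 1, CDKN1B, under quantile normalization (against 21.2%) and after cyclic loess. The 3 lower members, CDKN2A, RBL1 and RBL2, were the same under all 4 scalings. The share of all tested genes lower in both lines was not constant. It was above 27.9% under every other scaling and reached 45.5% under median centring, so the constant count does not set the members apart. The medians were 0.14 in the KMS11-labelled arrays and -0.19 in OPM2, against 0.04 and 0.03 over all tested genes. Of the 4 higher members, CDKN1A, CDKN1C and CDKN2D lay under background on both arrays of OPM2. Of the 3 lower members, CDKN2A lay under background on both KMS11-labelled arrays, with a difference of -0.06, so its direction there was not measured. RBL1 and RBL2 were above background on all arrays. Scaling moved the OPM2 median over all tested genes from 0.03 as deposited to -0.29 under median centring, -0.17 under quantile normalization and -0.18 after cyclic loess. Relative to that median, RBL1 stood at -1.13 as deposited and at -0.99 and -0.89 after quantile normalization and cyclic loess, RBL2 at -1.19, -0.92 and -0.93, and RB1 at -0.70, -0.46 and -0.45.

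The 3 tested genes with the pattern most like RBL1 over the 4 arrays, by Euclidean distance after each gene was centred on its mean, were RRS1, ATR and UBE3C. RRS1, a ribosome assembly factor, lay at a distance of 0.09, with differences of -1.36 in the KMS11-labelled arrays and -1.23 in OPM2. ATR, a kinase of the replication stress checkpoint, lay at 0.23, with differences of -1.10 and -1.15. UBE3C, a ubiquitin ligase, lay at 0.29, with -0.97 and -1.06. No other member met the rule for this search, a change of at least 0.5 in the same direction in both lines on at least 3 arrays above background.

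The partners and regulators of the members were read from fixed lists, in which 0 genes passed the treatment test in either direction. Beside the counts of these lists, 34.9% of all tested genes were higher in both lines and 27.9% lower in both, as deposited. Under median centring these shares were 13.3% and 45.5%, and the counts of the lists are given as deposited alone. Among 10 cyclins and kinases of G1, 7 were lower in both lines and 2 higher in both. Of the higher ones CCND1 was under background on all arrays, and of the lower ones CCND3 on both OPM2 arrays. The medians were -0.13 in the KMS11-labelled arrays and -0.55 in OPM2. CCND2, the cyclin D2 gene, had differences of -1.82 and -1.73, in that order, CCNE2 -1.36 and -2.35, CCNE1 -1.0 and -1.54, and CDK6 -0.16 and -0.40. Among 10 E2F and DP genes, which encode the factors that pocket proteins bind, 7 were lower in both lines and 0 higher in both, and the medians were -0.51 and -0.73. The activator E2F2 had -0.61 and -1.79 and E2F3 -0.72 and -0.57. E2F4, the main partner of p107 and p130, had -0.60 and -0.90, and the repressor E2F6 -0.67 and -0.58.

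The MuvB core is joined by p107 or p130 in the DREAM repressor complex, and later in the cycle by B-MYB (MYBL2) in their place. Of the 5 core genes and MYBL2, 2 were higher in both lines, 1 lower and 3 opposite, with medians of 0.31 in the KMS11-labelled arrays and -0.10 in OPM2. The 3 opposite ones, named after their values were seen, were MYBL2 (0.48 and -0.80), LIN9 (0.24 and -0.35) and LIN54 (-0.22 and 0.15). LIN52, through which p107 and p130 are bound, had 0.37 and 0.63. RBBP4, a histone binding subunit, had -0.21 and -0.51. LIN37 read 0.99 higher on the treated KMS11-labelled array, while in OPM2 its treated value was under background. Of 8 other measured binding partners of the pocket proteins, 3 were higher in both lines and 5 lower in both, and the medians were -0.04 and -0.48. HBP1, a repressor that binds RB and p130, was the member of this list farthest from 0, with 2.02 and 3.57 (limma adjusted p = 0.325). The histone demethylase KDM5A had 0.41 and 0.76 and the methyltransferase SUV39H1 0.62 and 0.39. The deacetylase HDAC1 had -0.49 and -0.87.

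Genes that turn over the inhibitor proteins differed within 1 complex. SKP2 is the subunit of the SCF ligase that recognises p27, and CKS1B is its cofactor. SKP2 read 12.59 on the treated KMS11-labelled array, against 13.20 on its control, and 10.87 on the treated OPM2 array, against 12.67 on the control, differences of -0.61 and -1.80. CKS1B read 10.25, against 9.44, and 11.58, against 10.44, in the same order, differences of 0.81 and 1.14. CKS1B and SKP2 thus lay on opposite sides of 0 in both lines, and neither passed (limma adjusted p = 0.325 for CKS1B and 0.358 for SKP2). CUL4A, a ligase scaffold, had -0.48 and -0.60, and DTL, which with it targets p21 in S phase, -0.52 and -0.37. Over the 10 genes of this list 5 were higher in both lines and 4 lower in both. The medians were 0.12 in the KMS11-labelled arrays and -0.05 in OPM2. Of the higher ones, SKP1, CUL4B, RNF123 and FZR1, named after their values were seen, had OPM2 differences of 0.14, 0.12, 0.04 and 0.04. RNF123 was under background on the treated OPM2 array. Median centring turned the larger OPM2 difference of CDKN1B, 0.16, to -0.16.

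Among 10 measured transcription regulators of inhibitor genes, 3 were higher in both lines and 1 lower in both, and the medians were 0.09 and 0.0. MYC, which represses CDKN1A and CDKN1B, was the lower one, with -2.83 and -1.26. KLF6, known to activate CDKN1A, was higher by 1.70 and 0.83. The other 2, named after their values were seen, were ZBTB17 (0.40 and 0.14), the partner through which MYC represses inhibitor genes, and FOXO4 (0.07 and 0.08). Neither was above background in OPM2. Of 7 other restraints on CDKs, 1 was higher in both lines and 2 lower in both, and the medians were 0.17 and -0.33. CDKN2AIP, which encodes a binding partner of ARF, had 1.13 and 0.33. CDK2AP1, which encodes a CDK2-associated protein, had -0.17 and -0.43, and the KMS11-labelled value turned to 0.04 under quantile normalization. CABLES1, named after its values were seen, had -0.98 in OPM2 and was under background in the KMS11-labelled arrays.

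**Figure D3:**
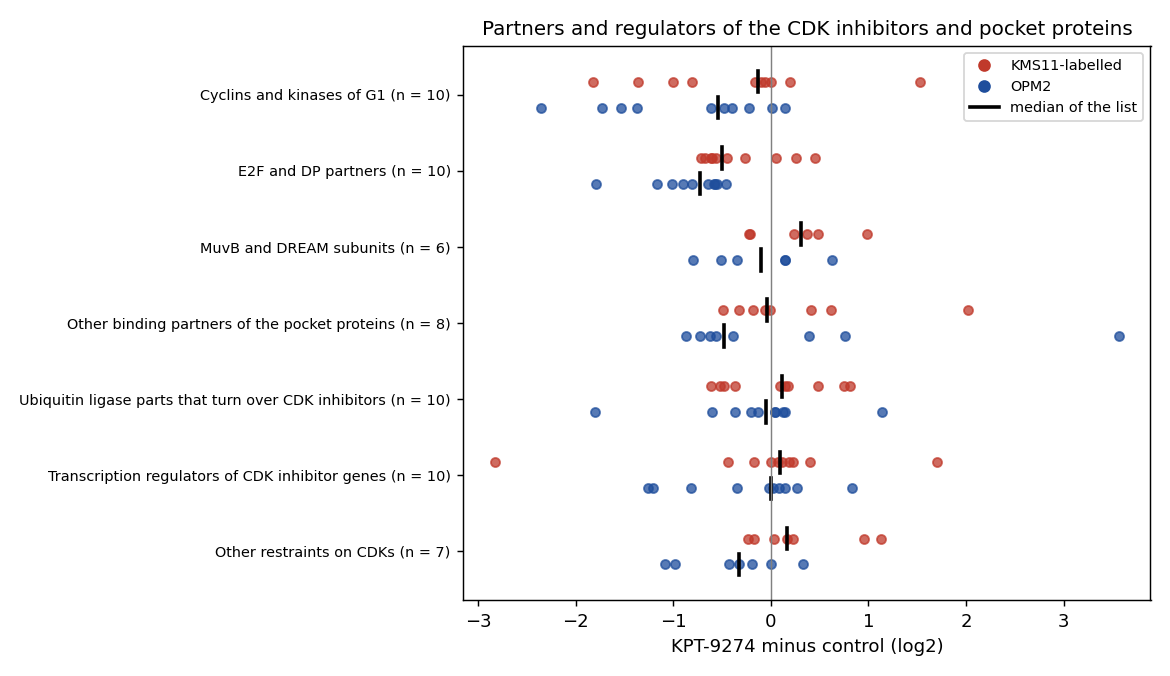
Treated minus control difference (log2) of each tested gene of the 7 lists in the KMS11-labelled arrays (red) and in OPM2 (blue), with the median of each list as a black bar. The E2F and DP genes lie below 0 in OPM2 without exception, HBP1 is the point farthest to the right in each line, and MYC the point farthest to the left in the KMS11-labelled arrays.

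The lines were then compared with each other, KMS11-labelled minus OPM2, over treated and control arrays together. In this contrast the treated and control array of a line stood as its replicates, so its p-values do not measure the spread between cultures. At a limma adjusted p below 0.05, 10.8% of tested genes were higher and 8.28% lower in the KMS11-labelled arrays. Among the members 0 of 8 were higher and 2 of 8 lower. RBL1 averaged 10.93 in the KMS11-labelled arrays and 12.85 in OPM2, a difference of -1.92 (3.78-fold; limma adjusted p = 0.0144), and it was lower on the treated and on the control array. CDKN2A averaged 6.12 in the KMS11-labelled arrays and 8.09 in OPM2, and since both KMS11-labelled values were under background, it was lower there by at least 1.56 (at least 2.95-fold). The limma test, which used the values as deposited, gave -1.97 with an adjusted p of 0.0162. RBL1 and CDKN2A passed under each of the 8 alternatives tried for this contrast, which all used these same arrays.

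RBL2 averaged 10.99 in the KMS11-labelled arrays and 9.96 in OPM2, a difference of 1.03 that did not pass (limma adjusted p = 0.0782), though it did under quantile normalization (0.0372), median centring (0.0462) and with the lowest 50% of genes left out (0.0484). RB1 averaged 11.55 and 10.74, a difference of 0.81 (95% interval -0.18 to 1.80; limma adjusted p = 0.193). CDKN1B averaged 9.96 and 10.73, a difference of -0.78 (95% interval -1.60 to 0.05; limma adjusted p = 0.153), and most of it lay in the control arrays, at -1.23, against -0.32 in the treated arrays. For CDKN2D the KMS11-labelled values, though above their own background, were under the mean background of the OPM2 arrays, so no fold can be given.

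CDKN2A was set beside genes that lie near it on chromosome 9, by RefSeq order. MTAP, which encodes a methionine salvage enzyme and lies next to CDKN2A, read 4.98 and 4.65 on the treated and control KMS11-labelled arrays, both under background, against 9.45 and 11.17 on the treated and control OPM2 arrays. It was lower in the KMS11-labelled arrays by at least 3.79 (limma adjusted p = 0.0149 for the values as deposited). A second, dimmer MTAP cluster read 5.13 and 5.09, against 6.37 and 7.19, and was above background on the OPM2 control array alone. KLHL9, which encodes a ubiquitin ligase adaptor, read 5.64 and 5.33 on the KMS11-labelled arrays, under background, against 8.21 and 7.97 on the OPM2 arrays. It was lower by at least 1.57 (limma adjusted p = 0.00882). All 3 genes were thus above background on both OPM2 arrays and on neither KMS11-labelled array, as were 1.30% of all tested genes.

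Around RB1 on chromosome 13 the picture was another. ITM2B, a membrane protein gene, averaged higher in the KMS11-labelled arrays, with 13.02 and 12.83 on the treated and control arrays, against 11.52 and 11.53 in OPM2 (difference 1.40, limma adjusted p = 0.0222). RCBTB2 read 6.61 on both KMS11-labelled arrays, just above background, and 5.82 and 5.78 in OPM2, under it. The KMS11-labelled values of RCBTB2 were under the mean background of the OPM2 arrays, so no fold can be given, whatever the test. Its difference did not pass (limma adjusted p = 0.0543), but did under quantile normalization (0.0235), median centring (0.0343), cyclic loess (0.025) and the trended and robust prior (0.0366). LPAR6, which lies within an intron of RB1, was under background on all 4 arrays. FAF1, the neighbour of CDKN2C on chromosome 1, was higher in the KMS11-labelled arrays by 2.41, with 12.58 and 12.01 against 9.92 and 9.85 in OPM2 (limma adjusted p = 0.0130).

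**Figure D4:**
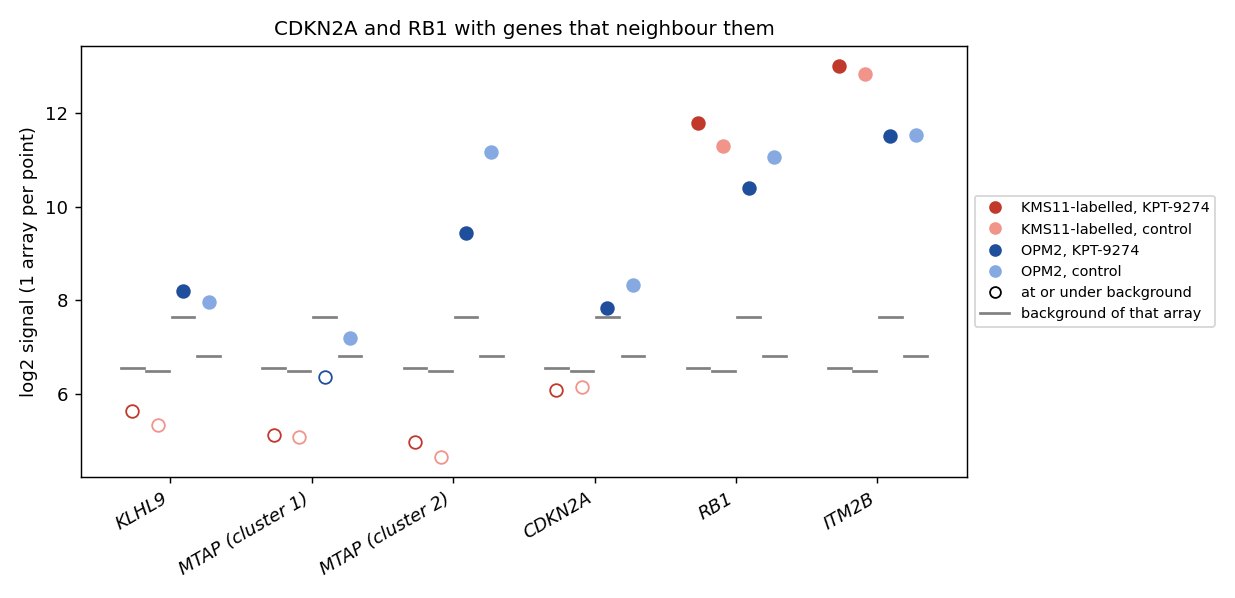
Log2 signal of CDKN2A with its neighbours KLHL9 and MTAP (both MTAP clusters), and of RB1 with its neighbour ITM2B, on the 4 arrays (1 point per array; no error bars, since each group has 1 array), with each array's background as a grey line and open points at or under it. KLHL9, MTAP and CDKN2A are under background on both KMS11-labelled arrays, while RB1 and ITM2B are far above it on all 4.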

How the data were processed

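RNA was measured on 4 whole-transcript arrays. The deposited table holds log2 signals, for which the submitters' processing notes name the Transcriptome Analysis Console. How probes were summarized and normalized, and the build, is not given in the sources used here. Their range, 2.49 to 19.74, was read as a log2 scale. Of 65528 clusters, 22755 had 1 gene symbol, 1389 several (not named) and 41384 were unnamed here. Symbols were updated through RefSeq (GRCh38.p14, names and gene order alone). The cluster with the highest mean stood for a gene, and the 25% of genes with the lowest mean (at most 5.40) were left out. The fit on unchanged values used limma 3.58.1 under R 4.3.3 (lmFit and eBayes, line and agent as terms, 1 residual and 2.79 prior degrees of freedom), two-sided, with Benjamini-Hochberg adjustment over all tested genes. The fit was tested on simulated data with planted treatment changes of 3 log2 and no difference between lines. These changes were larger than that of any member, so the simulation does not cover changes of the members' size. A change that runs into background is a bound against it, and none is given where both arrays are under it. Members, lists and tests were chosen with earlier results of these data known, and so support nothing by their choice. From each list up to 4 genes are named: those past the test, then those with the largest smaller change of both lines, in 1 direction and above background on at least 3 arrays. Chromosomal neighbours are named whatever they show. The number of arrays limits the precision. Alternatives were 3 scalings, 2 filters, 2 rules for genes with several clusters, dropping the line term, a prior both robust and trended, and signals set to background.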

Additional observations from a re-analysis of the deposited data

Results flagged for a closer look

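RB1 moved in opposite directions in the lines: treated minus control was 0.51 in the KMS11-labelled arrays and -0.67 in OPM2, which are 1.18 apart on the log2 scale. Each line has 1 treated and 1 control array, so this difference was not tested. Of all tested genes, 5.92% had a gap between the lines at least as large. The sign in each line was the same as deposited, under quantile normalization, under median centring and after cyclic loess.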

How the results depend on the processing

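The main fit pairs the treated and control array of each line through the line term, and without that term 0 genes were called after treatment. Under quantile normalization 2 genes were called higher and 3 lower after treatment, none of them a member, and 436 genes were at least 2-fold higher in the KMS11-labelled arrays, against 275 as deposited. Under median centring the 2-fold counts in OPM2 were 167 higher and 2079 lower, against 422 and 926. Near 0, some values changed sign (the cause was not tested). The treatment value of CDKN1A was -0.035 under median centring and -0.012 after cyclic loess. That of CDKN2D was -0.002 under quantile normalization, -0.075 under median centring and -0.057 after cyclic loess. That of RB1 was 0.019 under quantile normalization and 0.51 in the KMS11-labelled arrays alone, that of ITM2B -0.11 under median centring, and that of RCBTB2 -0.114, -0.18 and -0.181 under quantile normalization, median centring and cyclic loess. The line difference of CDKN1A was 0.086, 0.105 and 0.11 under the same 3 scalings. RBL1 stayed between -1.44 and -1.18 for the treatment, with adjusted p from 0.112 to 1, and between -1.92 and -1.73 for the line. Signals near background limit CDKN1A, CDKN1C, CDKN2A and CDKN2D.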

Other observations

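The run of genes at background around CDKN2A was followed along chromosome 9, a step chosen after the values were seen. Between FOCAD on one side and CAAP1 on the other, 25 measured protein-coding genes lie in a row in RefSeq order, 16 of them interferon genes. Of these 25, 0 were above background on a KMS11-labelled array and 6 were above it on an OPM2 array. The run ends where genes above background begin, so the 0 follows from its bounds and tests nothing. No like share over all genes is given for the counts of 0 and 6. Of all tested genes, 31.8% were not above background on any of the 4 arrays, which is another measure. KLHL9, MTAP and CDKN2A were above background on both OPM2 arrays. The INK4 gene CDKN2B (7.34), DMRTA1 (7.43) and ELAVL2 (6.83, against a background of 6.81) were above it on the OPM2 control array alone. The flanking genes were above background on all 4 arrays, FOCAD with 6.91 and 7.50 on the treated and control KMS11-labelled arrays and 8.32 and 9.09 on the OPM2 arrays, and CAAP1 with 8.97 and 9.51, and 8.24 and 8.97.

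CDKN3, which encodes a phosphatase that acts on CDK2, was chosen after its values were seen. It read 11.09 on the treated KMS11-labelled array, against 10.14 on its control, and 9.80 on the treated OPM2 array, against 10.88 on the control, differences of 0.95 and -1.08. The cyclin A2 gene CCNA2, which the rule for naming list genes did not pick, was higher by 1.53 in the KMS11-labelled arrays and by 0.15 in OPM2. Its OPM2 value was smaller than the 0.16 of CDKN1B, which turned to -0.16 under median centring. Differences between the lines were not tested.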
